A study of Homo sapiens with 9 samples.

Results

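The genes described here are the 182 best expressed members of the ZNF series of human zinc finger genes, taken from the 471 ZNF genes and the 14884 genes in all that the array names. They were chosen by level. A gene was a member when the symbol of its probe set is ZNF followed by a number and its mean log2 intensity over 8 arrays was at least 6, an intensity of 64, and the brightest probe set stood for a gene with several. The 183 probe sets above that level gave 182 genes, of which 180 are protein-coding and 2, ZNF271P and ZNF767P, are transcribed pseudogenes in RefSeq. The level itself is therefore a description and not a result, and it used no contrast between groups. All 182 members were among the 10916 genes that passed the filter on dim probe sets and were tested.

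The cells were A549, an established human line from a lung carcinoma that grows as an epithelial monolayer. They were kept in 96-well plates in DMEM with 10% fetal bovine serum for 5 days under 3 conditions with 3 arrays each. The attachment group grew on ordinary plates, the low-attachment group on plates to which cells do not stick, and the FP001 group on the same low-attachment plates with the additive FP001 at 0.015% (w/v) in the medium. The first 2 groups received Milli-Q water in place of FP001. FP001 was not given on attachment plates, so its own effect can be read only against low-attachment culture, and all cells came from 1 line. The comparisons ask which genes differ between flat and suspended culture, and whether the additive changes that difference.

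Attachment replicate 1 stood apart from the other 8 arrays. Its highest rank correlation with any of them over all probe sets was -0.0019, against at least 0.961 among the 8, and over the members it was 0.126 at most. Of the members, 105 lay at or above the median of that array, against 182 on each of the others. The members were chosen by their level on those 8 arrays, so the 182 largely follow from that choice. The array was left out, so the attachment group had 2 arrays. On the 8 arrays used, summed intensity ran from 6384444 to 6810557, and both attachment arrays had the highest sums. The 5 epithelial markers named on the array (KRT18, KRT19, EPCAM, KRT8 and KRT7, of 13 listed) all lay above the array median, with mean intensities from 98.0 to 3936, and the 3 endothelial markers named all lay below it, from 14.9 to 21.7. Among fibroblast markers DCN had a mean of 3.602 and LUM 83.2, with LUM running from 24.01 to 437 across arrays, and the 1 leukocyte marker named, CD14, had a mean of 138. The part of these markers in the results was not tested.

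Classical zinc finger proteins hold small loops folded around a zinc ion, and tandem arrays of such fingers read DNA in a sequence-specific way. In the largest human group, a KRAB domain next to the fingers recruits the corepressor TRIM28, which brings in histone methyltransferases, HP1 proteins and chromatin remodellers to silence transposable elements and other targets. Many of these genes lie in clusters on chromosome 19. Other ZNF proteins are activators, RNA-binding proteins, ribosome factors or spindle proteins, because the symbol records a sequence motif and not a function. ZNF185, also a member, is an actin-associated LIM domain protein.

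Promoters are shown for 5 members, since 3 of them had among the largest falls, 1 had the largest rise and 1 was nearly flat. Each line gives the 250 bases before the transcription start in 5′ to 3′ direction of the gene, from RefSeq's GRCh38.p14 table, with matches to a list of promoter motifs in capitals. ZNF337 lies at chr20:25696854-25697103 on the minus strand, ZNF286A at chr17:15699502-15699751 on the plus strand, ZNF248 at chr10:37858104-37858353 on the minus strand, ZNF227 at chr19:44212282-44212531 on the plus strand and ZNF367 at chr9:96418371-96418620 on the minus strand.
ZNF337: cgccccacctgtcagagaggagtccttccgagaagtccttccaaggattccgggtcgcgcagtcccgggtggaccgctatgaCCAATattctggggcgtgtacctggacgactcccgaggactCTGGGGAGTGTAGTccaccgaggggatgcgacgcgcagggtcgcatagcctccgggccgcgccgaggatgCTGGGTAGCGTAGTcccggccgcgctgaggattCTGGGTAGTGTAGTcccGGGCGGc
ZNF286A: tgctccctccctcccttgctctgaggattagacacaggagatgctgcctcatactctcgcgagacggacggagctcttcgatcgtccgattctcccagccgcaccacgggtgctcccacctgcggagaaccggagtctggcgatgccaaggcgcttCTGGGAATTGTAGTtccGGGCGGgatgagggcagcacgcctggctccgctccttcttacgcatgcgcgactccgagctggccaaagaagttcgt
ZNF248: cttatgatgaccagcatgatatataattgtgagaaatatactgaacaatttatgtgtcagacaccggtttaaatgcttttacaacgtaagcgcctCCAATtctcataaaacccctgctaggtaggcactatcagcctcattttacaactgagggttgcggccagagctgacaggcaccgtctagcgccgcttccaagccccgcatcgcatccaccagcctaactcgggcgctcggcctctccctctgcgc
ZNF227: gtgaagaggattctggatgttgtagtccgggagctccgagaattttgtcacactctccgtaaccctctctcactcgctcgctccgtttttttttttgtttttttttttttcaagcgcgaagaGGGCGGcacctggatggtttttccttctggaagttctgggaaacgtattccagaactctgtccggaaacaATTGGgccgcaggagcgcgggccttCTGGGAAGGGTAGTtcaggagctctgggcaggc
ZNF367: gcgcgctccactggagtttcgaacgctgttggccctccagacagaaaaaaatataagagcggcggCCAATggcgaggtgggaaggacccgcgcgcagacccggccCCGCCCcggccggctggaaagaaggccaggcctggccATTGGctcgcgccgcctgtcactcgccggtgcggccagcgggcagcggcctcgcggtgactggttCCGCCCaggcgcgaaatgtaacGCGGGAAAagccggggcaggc
In ZNF337 the capitals mark, from the left, a CCAAT box, 3 copies, on the opposite strand, of ACTAC and CCCAG set 4 bases apart, which is the start of a longer site known for the activator ZNF143, and a GC box (GGGCGG). ZNF286A held 1 copy of this spaced motif and a GC box. ZNF248 held a CCAAT box and no copy of the spaced motif. ZNF227 held the spaced motif, a GC box and a CCAAT box, yet its intensity stayed within 0.10 on the log2 scale over the 8 arrays. ZNF367 held 2 CCAAT boxes, 2 GC boxes and 1 E2F match (TTTCCCGC on the opposite strand).

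RefSeq gave a promoter for 158 members, 40 of which were called lower with FP001 than in attachment, as described further on. The spaced motif ACTAC, 4 bases of any kind and CCCAG, searched on both strands like every motif, was chosen after the sequences had been read. It was found in 21 of the 158 (13.3%), against 1.38% of all 35116 promoters. Of the 40 that fell 7 held it (17.5%), and of the other 118, 14 did (11.9%). The list of promoter motifs had its own ZNF143 motif, which was rare, in 3 of the 158 (1.9%). That motif was in 1 of the 40 that fell (2.5%) and 2 of the other 118 (1.69%), against 0.746% of all promoters. The ETS motif CCGGAAGT was in 16.5% of member promoters and 3.42% of all. The GC box was in 67.1% against 42.6% and CCAAT in 37.3% against 32%, while TATAAA was in 2.53% against 10.7%. The listed NRF1, E2F, CRE, AP-1, EGR1 and YY1 motifs were each in 1.9% to 5.7% of member promoters and 0.652% to 6.57% of all. Member promoters had a median of 20 CpG and 64.2% G or C, against 11 and 58.0% in all promoters. For the members that fell and those that did not, these medians were the same, at 20 CpG and 64.2%. The 35116 promoters were not limited to genes expressed in these cells, whereas the members were chosen by level, so the sets are not matched. The motif shares are descriptions, and no match was tested as a site.

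Within the members, most levels were modest. Mean intensity ran from 64.2 to 745, with a median of 98.4, and 14 members reached 256, 49 lay between 128 and 256 and 119 lay under 128. The 5 brightest were ZNF207 (745), a microtubule-binding protein that loads the spindle checkpoint factor BUB3, ZNF146 (706), a protein made almost only of fingers, ZNF384 (458), a transcription factor fused to other genes in acute leukaemia, ZNF532 (416) and ZNF574 (347). Just inside the cutoff were ZNF34, ZNF503 and ZNF107, with mean log2 intensities of 6.010, 6.006 and 6.004, and just outside were ZNF605, ZNF688 and ZNF597, with 5.997, 5.991 and 5.990.

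Members varied little across the arrays. The median member spanned 0.51 on the log2 scale from its lowest to its highest of 8 arrays, 89 spanned under 0.5 and 11 over 1. ZNF805 was the flattest, between 122 and 129 on every array. ZNF227 ranged from 146 to 156 and ZNF584 from 145 to 159. The widest range, 1.44, was that of ZNF767P.

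**Figure D1:**
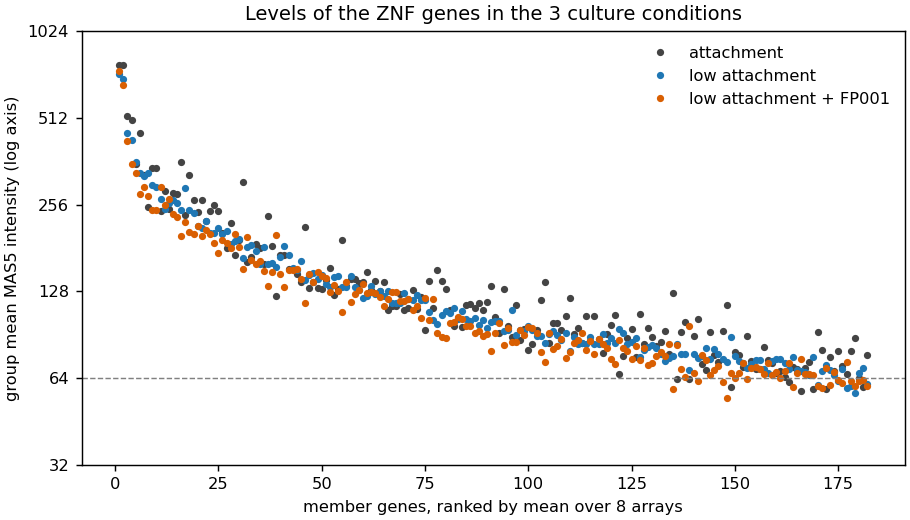
Mean MAS5 intensity of each member in each group (vertical log axis) against the member's rank by mean level (horizontal axis). Points are group means on the log2 scale of 2 attachment arrays (grey), 3 low-attachment arrays (blue) and 3 FP001 arrays (orange), and the dashed line is the cutoff of 64. Grey points lie above the others for many members, and few members have an orange point on top.

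Relative to all other genes, the members sat highest in attached cells. On each array the median log2 intensity of the members was set against that of all tested genes, a difference that a scaling factor of the array cannot move. Attachment replicates 2 and 3 gave 0.34 and 0.30. The low-attachment arrays gave 0.16, 0.19 and 0.19, and the FP001 arrays 0.13, 0.11 and 0.17. The attachment values lay above the other 6, whereas the low-attachment and FP001 ranges overlapped. The group means were 0.32 ± 0.02 (SD, n = 2), 0.18 ± 0.02 (SD, n = 3) and 0.14 ± 0.03 (SD, n = 3). The difference was -0.14 for low attachment and -0.18 for FP001, both against attachment. With the cutoff moved to a mean log2 of 7 it shrank to -0.03 and -0.09.

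**Figure D2:**
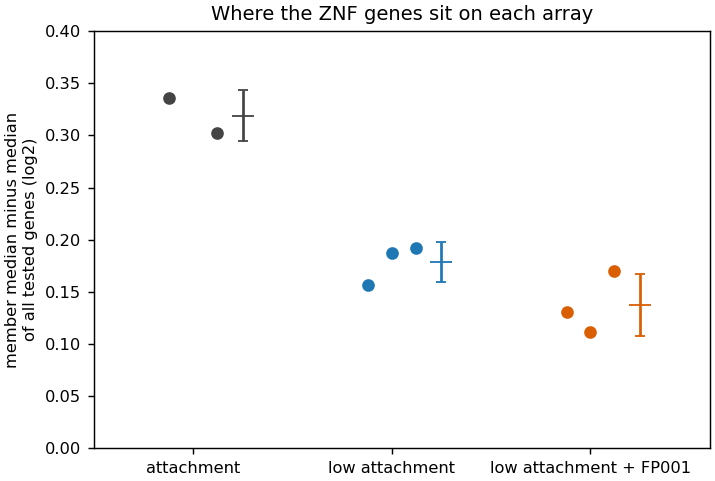
Median log2 intensity of the members minus that of all 10916 tested genes, per array (points), by culture condition. Bars beside the points give the mean ± SD of the group. Both attachment arrays are at 0.30 or above and the 6 low-attachment and FP001 arrays are at 0.19 or below.

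Moving A549 cells from attachment to low-attachment plates lowered 17 members and raised 3. The fits were made with limma over all 10916 genes, and a gene was called at a Benjamini-Hochberg adjusted p under 0.05. In such bulk RNA, fewer cells expressing a gene and less RNA per cell cannot be told apart. The 17 are 9.34% of the members, where 5.76% of all tested genes were called lower, and the 3 are 1.65%, where 4.31% of all were called higher. Of the 6474 tested genes outside the ZNF series that also had a mean log2 of 6 or more, 7.65% were called lower and 5.89% higher, so the share of members called lower was near that of other genes at this level. The median log2 fold change was -0.07 over the members, 0.01 over all genes and -0.03 over the 6474. After quantile normalization, 14 members were called lower and 7 higher, so that rises were 33.3% of the calls in place of 15%, with backgrounds of 4.69% and 5.61%. The count rested on both attachment arrays, since 3 members were called without attachment replicate 2, 6 without attachment replicate 3 and 12 without low-attachment replicate 2, and no member kept its call under every omission of 1 array.

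The fall was steepest for ZNF286A, a gene of chromosome 17. Its intensities were 304 and 312 on the attachment arrays, 134, 193 and 181 on the low-attachment arrays, and 156, 135 and 171 with FP001. Every attachment value lay above all 6 others, while the low-attachment and FP001 ranges overlapped. The log2 fold change for low attachment was -0.88 (SE 0.15, adjusted p = 0.0062, limma), a 1.84-fold fall. ZNF337, on chromosome 20, read 136 and 117 in attachment, 71.2, 73.0 and 86.0 in low attachment, and 60.6, 53.9 and 62.3 with FP001. The 3 groups did not overlap for ZNF337, and it fell by 0.72 (SE 0.12, adjusted p = 0.0052) in low attachment. ZNF248 read 155 and 122 in attachment against 84.9, 85.2 and 84.3 in low attachment, a fall by 0.70 (SE 0.12, adjusted p = 0.0052).

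The other falls in low attachment were smaller and again separated the groups. The transcribed pseudogene ZNF767P fell by 0.65, ZNF37A by 0.64, ZNF614 and ZNF607 by 0.61, ZNF845 by 0.60, ZNF8 by 0.56, ZNF512 by 0.55 and ZNF75A by 0.54. ZNF280B, ZNF543, ZNF827, ZNF766, ZNF692 and ZNF79 fell by 0.50, 0.42, 0.42, 0.40, 0.39 and 0.36. All 17 were also called lower with FP001. ZNF827 is known for bringing the NuRD remodelling complex to telomeres.

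The 3 members that rose in low attachment differed in how they read with FP001. ZNF467, a regulator of the choice between fat and bone cell fate, read 66.8 and 53.5 in attachment, 85.6, 89.5 and 91.3 in low attachment, and 69.6, 69.0 and 61.5 with FP001. It rose by 0.57 in low attachment (SE 0.12, adjusted p = 0.0127, limma), and its FP001 values overlapped those of attachment. ZNF524, a telomere-binding protein, rose by 0.52 (SE 0.13, adjusted p = 0.0348), with FP001 at 0.40 and an adjusted p of 0.061. ZNF275, on the X chromosome, read 62.7 and 64.4 in attachment, 85.5, 84.0 and 83.5 in low attachment and 95.5, 81.0 and 75.4 with FP001. It rose in both comparisons, by 0.41 and 0.39, with adjusted p-values of 0.0423 and 0.0325 (limma). The low-attachment call of ZNF275 was lost without attachment replicate 2 or 3 (adjusted p = 0.192 and 0.139, limma). It was also lost with each array centred on its median.

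With FP001, 45 members lay lower than in attachment and 3 higher. That is 24.7% of the members, where 11.4% of all tested genes were called lower, and 1.65%, where 8.08% of all were called higher. The median log2 fold change was -0.14 over the members, 0.02 over all genes and -0.02 over the 6474 other genes with a mean log2 of 6 or more. Of those 6474 genes, 14.3% were called lower and 9.41% higher. After quantile normalization, 36 members were called lower and 10 higher, against 8.87% and 11.4% of all genes, and the 36 were all among the 45. Without attachment replicate 2, 18 members were called, and without attachment replicate 3, 29. The call held under each omission of 1 array for 15 members, of which 14 fell (ZNF248, ZNF286A, ZNF319, ZNF337, ZNF512, ZNF532, ZNF543, ZNF607, ZNF692, ZNF75A, ZNF766, ZNF767P, ZNF8 and ZNF827) and 1 rose (ZNF367). The comparisons share their attachment arrays, so the 17 members lower in both are not 2 separate observations. Unless the low-attachment group is named, a fall or rise with FP001 is against attachment, where plate and additive differ together.

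**Figure D3:**
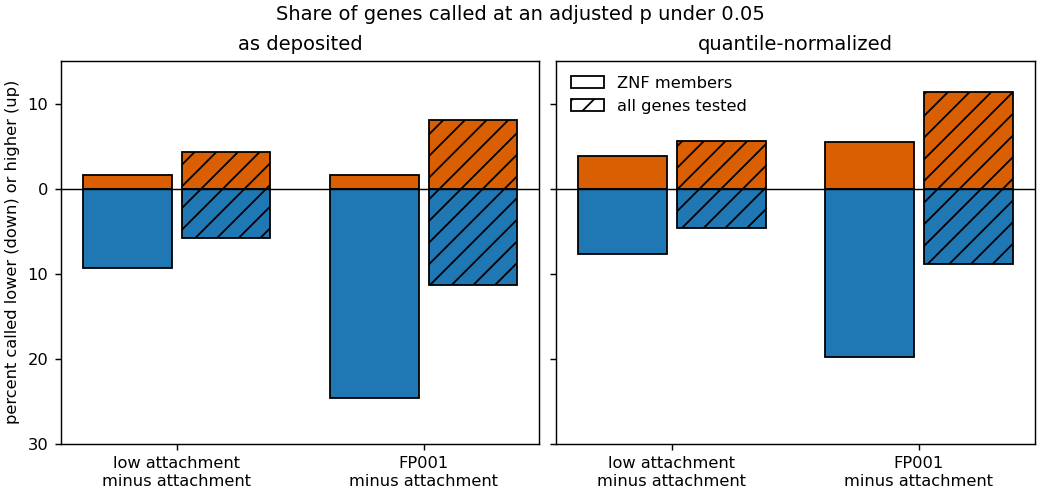
Percent of the 182 members (plain bars) and of all 10916 tested genes (hatched bars) called higher (orange, up) or lower (blue, down) at an adjusted p under 0.05, on the deposited values (left) and after quantile normalization (right). Among members with FP001, 24.7% were lower on deposited and 19.8% on quantile-normalized values, and in both panels the plain blue bars are longer than the hatched ones.

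The 10 largest falls with FP001 all belonged to genes that had also fallen in low attachment. ZNF337 led with a log2 fold change of -1.10 (SE 0.12, adjusted p = 0.00043, limma), a 2.15-fold fall from a mean of 126 in attachment to 58.8. ZNF767P read 121 and 109 in attachment, 74.1, 71.4 and 72.9 in low attachment and 44.5, 55.0 and 65.7 with FP001, and fell by 1.07 (SE 0.14, adjusted p = 0.0011). ZNF286A fell by 1.01 (SE 0.15, adjusted p = 0.0019). These groups did not overlap with attachment on any array.

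The next in size were ZNF248 (-0.92), ZNF607 (-0.88), ZNF512 (-0.86), ZNF75A (-0.83), ZNF8 (-0.81), ZNF827 (-0.75) and ZNF614 (-0.72). ZNF607 held nearly the same value on the 3 FP001 arrays, at 116, 116 and 117, against 228 and 201 in attachment. ZNF8 did so too, at 134, 134 and 133 against 263 and 208. ZNF75A read 203 and 183 in attachment, 131, 130 and 137 in low attachment, and 117, 106 and 103 with FP001, with no overlap between any of the 3 groups. ZNF512 was among the brightest of them, with 359 and 363 in attachment and 170, 206 and 224 with FP001. The call for ZNF614 was lost without attachment replicate 2 (adjusted p = 0.0699, limma).

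**Figure D4:**
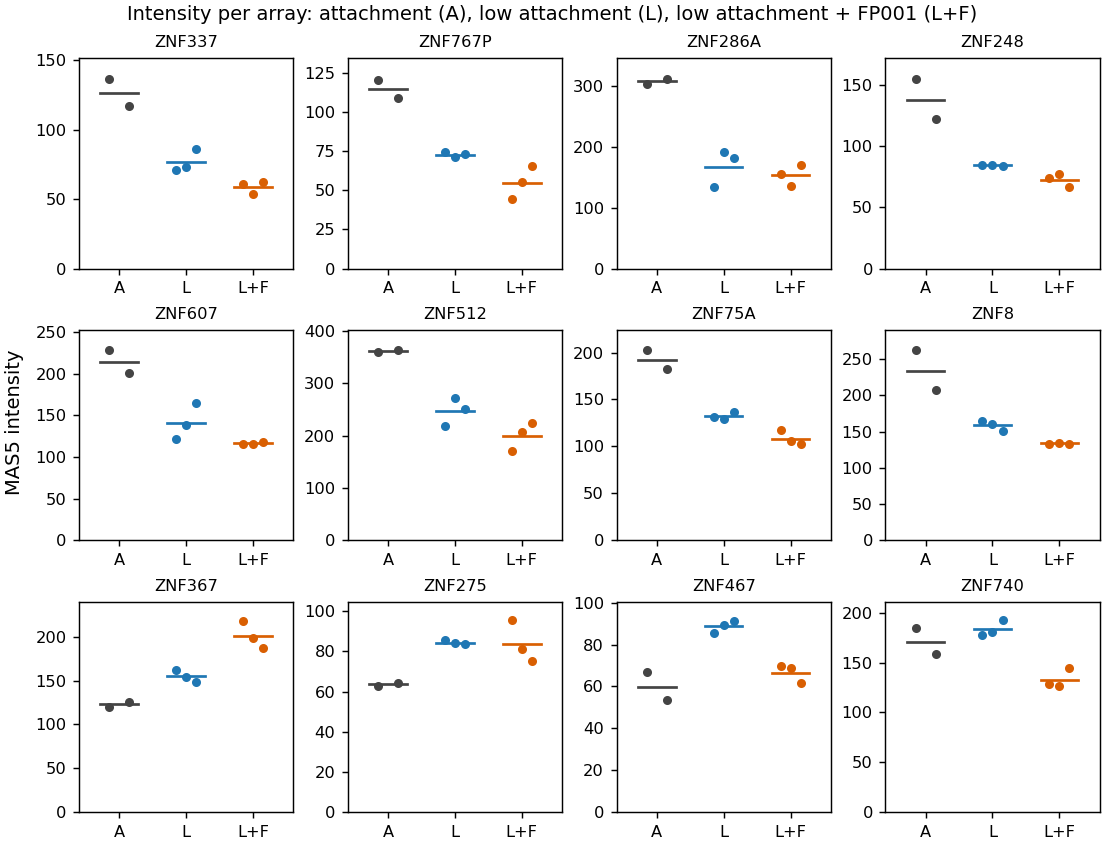
MAS5 intensity on each of the 8 arrays (points) for 12 members, with the group mean on the log2 scale as a bar, in attachment (A, 2 arrays), low attachment (L, 3 arrays) and low attachment with FP001 (L+F, 3 arrays). The first 8 panels show members that fell in both comparisons against attachment, and in each of them both attachment points lie above all others. ZNF367 steps up from A to L+F, and ZNF467 is high in L alone.

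The order attachment, then low attachment, then FP001, from high to low, held in the group means of 85 of the 182 members (46.7%) and of 24.7% of all tested genes, and the reverse order held in 19 members. Among the 45 that fell it held in 43 (95.6%), against 83.6% of the 1244 genes called lower over all tested. The call itself sets FP001 below attachment, so these last shares are descriptions. ZNF37A was 1 of the exceptions, with means of 88.3, 56.6 and 59.8. In 28 of the 45 the fall passed the threshold with FP001 and not in low attachment. None of these 28 was called between the low-attachment and FP001 groups in the main model of 8 arrays, which took no account of replicate numbers. With the replicate number added to that model, ZNF740 was called (adjusted p = 0.0337, limma). In the paired fit of 6 arrays given further on, 4 of the 28 were called (ZNF740, ZNF532, ZNF280C and ZNF277).

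ZNF367 had the largest rise. First described as a regulator in fetal erythroid cells, it read 120 and 126 in attachment, 163, 155 and 149 in low attachment and 218, 199 and 187 with FP001. The 3 groups did not overlap. The log2 fold change with FP001 was 0.71 (SE 0.10, adjusted p = 0.0011, limma), and low attachment alone gave 0.34 with an adjusted p of 0.0508. The third member called higher with FP001, besides ZNF275, was ZNF622, a factor in the maturation of the large ribosomal subunit, which rose by 0.29 (SE 0.09, adjusted p = 0.0449) from a mean of 161 to 197. In low attachment its log2 fold change was 0.17, with an adjusted p of 0.247, and the groups with and without FP001 were not shown to differ. Its call was lost without attachment replicate 2 (adjusted p = 0.185, limma).

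Grouped by known role, with the groups drawn up after the values had been seen, the counts are descriptions to be read beside the 24.7% of all members and 11.4% of all genes called lower with FP001. Of 8 that act on RNA or ribosomes, 1 rose and 1 fell with FP001. ZNF622 was the rise, and ZNF830, a splicing factor, fell by 0.30 (SE 0.08, adjusted p = 0.0306, limma; 0.166 without attachment replicate 2). ZNF598, the ubiquitin ligase that senses collided ribosomes, read 126 and 147 in attachment and 134, 133 and 121 with FP001, and these ranges overlapped. ZNF326, part of a complex that links transcription with splicing, had a log2 fold change of -0.16 with an adjusted p of 0.357. For ZNF473, which takes part in processing the ends of histone messenger RNA, the change was -0.25 with an adjusted p of 0.113.

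Of 12 members known for chromatin, transcriptional complexes or SUMO, 3 fell with FP001 (25%, near the share of all members) and none rose. ZNF827 was one. ZNF532, a partner of the chromatin reader ZMYND8, read 553 and 462 in attachment, 437, 424 and 429 in low attachment and 349, 355 and 355 with FP001, and the groups did not overlap. It fell by 0.52 with FP001 (SE 0.09, adjusted p = 0.0039, limma). Its relatives in the same complex, ZNF592 and ZNF687, had log2 fold changes of -0.15 and -0.11, with adjusted p-values of 0.317 and 0.527. ZNF638, which works with the HUSH silencing complex, fell by 0.48 (SE 0.10, adjusted p = 0.0106; 0.0721 without attachment replicate 2), from 342 and 344 in attachment to 214, 267 and 260. ZNF143 (-0.14), ZNF410, an activator of CHD4 (-0.14), ZNF274, which guides heterochromatin to other ZNF genes (-0.34), and ZNF445, a guardian of imprinted loci (-0.20), were not called, with adjusted p-values from 0.131 to 0.380.

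Among 7 transcription factors tied to cancer or cell identity, 2 fell and 1 rose with FP001. ZNF281, a regulator of pluripotency genes and of the epithelial-mesenchymal transition, read 433 and 474 in attachment, 278, 355 and 362 in low attachment and 246, 291 and 304 with FP001. Both attachment values were above all others, and it fell by 0.70 with FP001 (SE 0.13, adjusted p = 0.0058, limma), with an adjusted p of 0.0505 without attachment replicate 3. ZNF384 fell by 0.29 (adjusted p = 0.0334), but its other probe set above the cutoff gave -0.05, and the call was lost without attachment replicate 2 (adjusted p = 0.147). ZNF217 and ZNF703, both amplified in breast cancers, had log2 fold changes of -0.29 and 0.10 with adjusted p-values of 0.0853 and 0.601. ZNF367 was the member that rose.

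A second probe set did not always side with the first. The dim probe set of ZNF248, under the cutoff, had a log2 fold change of 0.37 with FP001, against -0.92 for the one used. The probe sets of ZNF219 gave 0.37 and -0.23, and those of ZNF445 gave -0.20 and 0.38. The files do not say which transcripts each probe set covers.

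Between the low-attachment and FP001 groups, which differ in the additive alone, no member was called. The smallest adjusted p was 0.120 (limma), and 31 members had an unadjusted p under 0.05, of which 28 lay lower with FP001. Over all genes 0.0366% were called higher and 0.0733% lower, and after quantile normalization 0.0366% and 0.0458%. The median log2 difference over the members was -0.09. The 8 members with the smallest p were ZNF740 (-0.47), ZNF367 (0.37), ZNF467 (-0.41), ZNF668 (0.30), ZNF358 (-0.39), ZNF319 (-0.31), ZNF532 (-0.28) and ZNF768 (-0.28), with adjusted p-values between 0.120 and 0.230. For ZNF740 the low-attachment arrays read 177, 181 and 192 and the FP001 arrays 128, 126 and 145, without overlap, and attachment read 184 and 159.

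Same-numbered arrays of these 2 groups deviated together, and a fit of the 6 arrays with the replicate number as a block called 10 members. In that paired fit 9 members fell with FP001 and 1 rose, against 2.67% and 1.59% of all genes. ZNF740 fell by 0.47 (adjusted p = 0.0054, limma) and ZNF358 by 0.39 (adjusted p = 0.0096). ZNF467, ZNF337, ZNF184, ZNF512, ZNF277, ZNF280C and ZNF532 fell by 0.41, 0.38, 0.35, 0.31, 0.29, 0.29 and 0.28. The rise was that of ZNF367, by 0.37 (adjusted p = 0.0152). ZNF467 had risen in low attachment, so its 3 groups read low, high and low, while ZNF358 had means of 236, 292 and 222.

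The members are spread over the genome, with 66 on chromosome 19, 17 on chromosome 7, 16 on chromosome 16 and 10 on chromosome 1. On chromosome 19, 16 of 66 members fell with FP001 and none rose, with a median log2 fold change of -0.18. Elsewhere 29 of 116 fell and 3 rose, with a median of -0.10. The shares called lower were 24.2% and 25%. Of the 701 tested genes on chromosome 19 outside the ZNF series, 10.1% were called lower and 8.56% higher, with a median of 0.05. The difference between these sets was not tested.

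The calls of neighbouring members were set side by side. In the RefSeq order of protein-coding genes and members, with other genes left out, 30 pairs of members are adjacent, 13 of them on chromosome 19. With FP001 both log2 fold changes were negative in 14, both positive in 5 and of opposite sign in 11. In 0 of the 30 were both members called lower, in 9 exactly 1 was and in 21 neither was, with 24.7% of all members called lower. The pairs named next were all taken from these 9. On chromosome 7, ZNF767P fell by 1.07 and its neighbour ZNF746, a repressor that parkin marks for degradation, had a log2 fold change of 0.06. On chromosome 1, ZNF692 fell by 0.64 (adjusted p = 0.0035, limma) and ZNF672 had 0.15. On chromosome 10, ZNF248 fell by 0.92 beside ZNF25 at -0.30 (adjusted p = 0.118), and ZNF37A fell by 0.56 beside ZNF33B at -0.05. On chromosome 19, ZNF302 fell by 0.62 (adjusted p = 0.0341; 0.185 without attachment replicate 2) and ZNF181 had -0.02. In the rest of the 9 both changes were negative. These were ZNF766 beside ZNF480 (-0.66 and -0.16), ZNF543 beside ZNF460 (-0.60 and -0.26), ZNF586 beside ZNF776 (-0.44 and -0.27) and ZNF251 beside ZNF34 (-0.59 and -0.04).

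The dimmer ZNF genes and other families of finger genes are given beside the 11.4% of all tested genes called lower and 8.08% called higher with FP001. Of 289 ZNF genes under the cutoff, 163 were tested, and with FP001 33 of them (20.2%) were called lower and 1 higher, with a median log2 fold change of -0.15. For these dim genes a pass through the filter can depend on the group where they are high. Of 36 tested ZBTB genes, whose proteins join fingers to a dimerising domain, 9 were lower (25%) and 3 higher (8.33%). Of 16 ZSCAN genes 4 were lower (25%), of 6 ZKSCAN genes 1 (16.7%) and of 14 ZFP genes 2 (14.3%), and none of these was higher. No difference between families was tested. In low attachment the counts lower and higher were 11 and 0 for the dim ZNF genes, 1 and 3 for ZBTB (2.78% and 8.33%), 1 and 0 for ZSCAN, 0 and 0 for ZKSCAN, and 1 and 0 for ZFP.

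Several partners of KRAB repressors fell as well. Of 36 genes listed for the TRIM28 pathway, 28 were tested. In low attachment 4 fell and none rose (14.3%, against 5.76% of all genes), and with FP001 9 fell and none rose (32.1%, against 11.4%). All tested partners except HDAC2, DNMT3B and SUV39H2 had a mean log2 of 6 or more. Of the 6474 genes outside the ZNF series at that level, 7.65% were lower in low attachment and 14.3% with FP001. The difference between these sets was not tested. TRIM28, the hub of the pathway, was bright and was not called. It read 1078 and 1185 in attachment, 952, 1092 and 1146 in low attachment and 953, 1070 and 1107 with FP001, and these ranges overlapped. Its log2 fold change with FP001 was -0.12 (SE 0.10, adjusted p = 0.424, limma).

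With FP001 the largest falls among the partners were those of ATF7IP2 and ATF7IP, related proteins that hold the histone methyltransferase SETDB1 in the nucleus. SETDB1 itself was listed but was not among the genes tested. ATF7IP2 read 204 and 177 in attachment, 115, 121 and 117 in low attachment and 87.4, 80.9 and 97.6 with FP001, with no overlap between the 3 groups. It fell by 0.69 in low attachment (SE 0.11, adjusted p = 0.0037, limma) and by 1.11 with FP001 (SE 0.11, adjusted p = 0.00024), and both calls held with each array left out. ATF7IP fell by 0.73 with FP001 (SE 0.12, adjusted p = 0.0032), from 195 and 157 to 92.4, 114 and 111. In low attachment ATF7IP had -0.30 and was not called (adjusted p = 0.154, limma).

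The HP1 proteins CBX1 and CBX5, which bind methylated histone, fell in both comparisons, by 0.40 and 0.34 in low attachment and by 0.40 and 0.43 with FP001. The HP1 protein CBX3 had -0.23 and -0.25 and was called in neither (adjusted p = 0.138 and 0.0754, limma). RBBP4, a histone chaperone of several repressor complexes, fell by 0.43 in both. RBBP4 read 583 and 586 in attachment, 413, 444 and 447 in low attachment and 459, 418 and 428 with FP001, and the low-attachment and FP001 ranges overlapped. Called with FP001 and not in low attachment, MORC2 and MPHOSPH8 of the HUSH pathway fell by 0.49 and 0.32, ATRX, a remodeller of heterochromatin, by 0.48, and SIN3A, a scaffold for histone deacetylases, by 0.37. The call for MPHOSPH8 lay at the threshold (adjusted p = 0.04997, limma). Between the low-attachment and FP001 groups 0 of the 28 partners were called (limma), with 6 at an unadjusted p under 0.05, 6 of them lower, so no partner was shown to differ with the additive, and MORC2 already had a log2 fold change of -0.28 in low attachment. Without attachment replicate 2, 3 of the 9 partners were called with FP001, and without FP001 replicate 1, 5. Without attachment replicate 3, 5 partners were called lower and 1 higher with FP001. With the replicate number added to the model of 8 arrays, 9 were lower and 1 higher. UHRF1 had the largest rise with FP001 in the main model, 0.37, and was not called there (adjusted p = 0.0915, limma). The 4 calls in low attachment came to 1 without either attachment array and to 2 without low-attachment replicate 1 or 2.

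**Figure D5:**
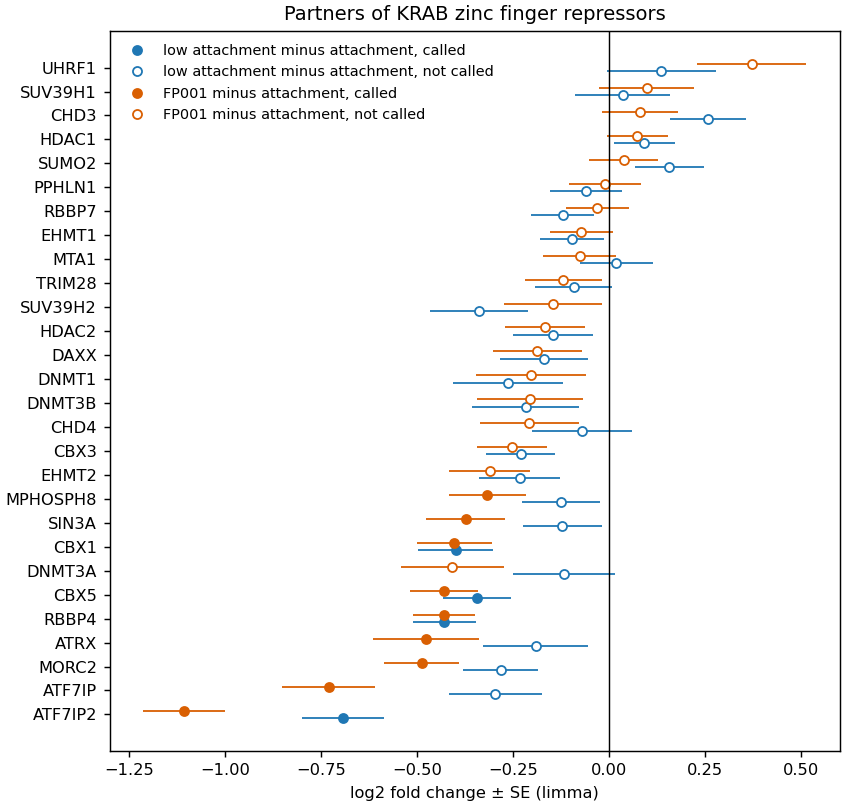
Log2 fold change ± SE (limma) of the 28 tested partner genes in low attachment (blue) and with FP001 (orange), both against attachment. Filled points are called at an adjusted p under 0.05, and all filled points lie left of 0, from ATF7IP2 at -1.11 to MPHOSPH8 at -0.32 with FP001, while TRIM28 is open at -0.12.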

How the data were processed

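Total RNA (100 ng per sample) was labelled and hybridised to Affymetrix arrays, 1 array per sample. The deposited values are linear intensities, 1 per probe set, which the authors computed with MAS5 (submitters' processing notes). The MAS5 version and scaling target were not given in the sources used here. Labelling followed a 3′ IVT kit per the labels, whereas the probe set numbers resemble those of whole-transcript arrays, so which array design the MAS5 values summarise is unsettled here. Gene symbols came from the platform annotation and were matched to RefSeq (GRCh38.p14), which also supplied chromosomes and promoters. Intensities were log2-transformed without a pseudocount. Probe sets at or above the array median on at least 3 of 8 arrays were kept (27942), and the brightest per gene was tested in R 4.3.3 with limma 3.58.1 (1 model of 3 groups, eBayes with trend, two-sided, Benjamini-Hochberg adjustment over 10916 genes). Attachment replicate 1 was left out. Group means are means of log2 values.

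Members and gene lists were chosen with earlier results of these data known. Named genes were all called members of a comparison up to 15, otherwise the 10 largest rises and falls; the 5 brightest; 3 on each side of the cutoff; members with several probe sets above it or called in several comparisons; called partners; and, without calls, the 8 smallest p. Genes named by role, neighbourhood or flatness were chosen after their values were seen. The labels do not state whether the 3 samples of a group were separate cultures, and p-values therefore cover the spread among these samples alone, possibly a technical one. Same-numbered low-attachment and FP001 arrays correlated in their deviations from the group means (r = 0.48, 0.31 and 0.23 over all genes), which the labels do not explain. Over the members alone these correlations were weaker, at 0.21, 0.12 and 0.19. The fit was tested on simulated data with independent noise for each gene. These held no shift of a whole array and no link between same-numbered arrays, so they do not cover such features of the real data. Protein sequences were not used here.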

Additional observations from a re-analysis of the deposited data

How the results depend on the processing

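With attachment replicate 1 taken back in (all 9 arrays), the count of called members was 0 in low attachment and 0 with FP001, and 39 of the 68 log2 fold changes of called members turned their sign. In low attachment these were ZNF248 (0.72), ZNF286A (0.42), ZNF337 (0.83), ZNF37A (0.87), ZNF512 (1.19), ZNF607 (0.93), ZNF75A (0.56), ZNF766 (0.15), ZNF767P (0.23), ZNF79 (0.98), ZNF8 (0.98) and ZNF845 (0.58). With FP001 they were ZNF182 (0.23), ZNF224 (0.45), ZNF248 (0.49), ZNF251 (0.53), ZNF280C (1.14), ZNF281 (0.30), ZNF286A (0.29), ZNF322 (0.78), ZNF330 (1.38), ZNF331 (0.77), ZNF337 (0.45), ZNF37A (0.95), ZNF507 (0.30), ZNF512 (0.88), ZNF518A (0.10), ZNF532 (0.33), ZNF558 (0.10), ZNF607 (0.66), ZNF638 (1.32), ZNF740 (0.55), ZNF749 (0.65), ZNF75A (0.27), ZNF770 (0.64), ZNF79 (0.90), ZNF8 (0.74), ZNF830 (1.87) and ZNF845 (0.57). That array correlates with no other, as reported above, and the cause was not tested.

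Among the 8 arrays, no fold change of a called member turned its sign under any alternative run. Adjusting over all probe sets left 13 members called in low attachment, and a member cutoff of 7 left 6 there and 19 with FP001. With each array left out in turn the count ran from 3 to 25 in low attachment, from 18 to 48 with FP001 and stayed at 0 between the low-attachment groups. For the KRAB partners, whose alternatives were chosen after seeing the data, it ran from 1 to 4 and from 3 to 9, and quantile normalization left 6 of the 9 calls with FP001. Between the low-attachment groups a replicate block called 2 members in the model of 8 arrays and 10 in that of 6 arrays. It ended 2 calls of named genes against attachment, where same-numbered arrays had correlations from -0.26 to 0.14. The deviations of 2 attachment arrays from their mean are mirror images, so these correlations cannot show whether replicates were paired. A cutoff of 5.5 gave relative medians of -0.0646, -0.144 and -0.080 for low attachment, FP001 and their difference, and a cutoff of 7 gave -0.032 and -0.088 for the first pair. The cause of these shifts was not tested. With 2 attachment arrays, the number of arrays limits the precision.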
